A study of Mus musculus with 6 samples.

Results

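The chemokine receptors of brain myeloid cells followed here were 9 of the 31053 genes in the count matrix. They were chosen by name, as receptors through which leukocytes sense chemokines or the attractant chemerin, and were Cx3cr1, Ccr1, Ccr2, Ccr7, Cxcr2, Cxcr3, Cxcr4, Cmklr1 and Ackr3. All 9 had counts. They were compared between cells resident in the brain and cells recruited to it. The cells were CD45+ immune cells sorted after a Percoll gradient from the tumor-bearing right hemisphere of female SCID mice, a strain without functional T and B cells, aged 6 to 8 weeks by the sample tags. Each mouse carried an intracranial graft of U87, an established human glioma line. In 3 mice the graft expressed IL-33 and tissue was taken 3 weeks after implantation, and in the other 3 it carried the empty vector pcDNA and tissue was taken after 6 weeks, so that graft and time cannot be told apart. Single-cell libraries were made with 10x Chromium 3′ chemistry, in which every transcript is tagged with a unique molecular identifier (UMI) and counted once. The 6 libraries were deposited as 1 matrix whose barcodes end in a suffix from 1 to 6. Neither the sample labels nor the barcodes name the mouse of a suffix. Groups were taken from the labels alone, and the study's summary of its libraries was not used to assign suffixes, so the grafts were not compared, the matrix counted as 1 pooled sample, and no p-values were computed.

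Chemokine receptors are membrane proteins that couple to G proteins and steer a cell up a gradient of its ligand. Microglia, the resident macrophages of the brain, are known for CX3CR1, the receptor of the neuronal chemokine CX3CL1, whereas CCR2, the receptor of CCL2, is known for letting inflammatory monocytes leave the marrow and enter inflamed tissue. CXCR2 guides neutrophils, CXCR3 guides NK and T cells towards interferon-induced chemokines, and CCR7 leads mature dendritic cells to lymph nodes. CXCR4 and the scavenging receptor ACKR3 both bind CXCL12, and CMKLR1 binds chemerin.

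Cx3cr1 and Ccr2 both lie on mouse chromosome 9, and Cxcr2, which marks a further class of recruited cells, lies on chromosome 1. The promoters of these 3 are shown because the genes differed in which group held their highest level. The 300 bases (250 before and 50 after the annotated start) are from RefSeq on GRCm38.p6, written 5′ to 3′. Capitals mark AGGAA on either strand (TTCCT when read on the strand shown), which holds the GGAA core bound by ETS factors such as PU.1.
Cx3cr1 promoter, chr9:120068247-120068546, minus strand: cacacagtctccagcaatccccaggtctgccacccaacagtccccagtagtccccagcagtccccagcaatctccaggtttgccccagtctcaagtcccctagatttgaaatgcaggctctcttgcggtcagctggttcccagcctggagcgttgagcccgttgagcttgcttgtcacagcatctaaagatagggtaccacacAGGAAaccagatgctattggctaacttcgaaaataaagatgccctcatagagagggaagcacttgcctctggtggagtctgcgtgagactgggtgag
Ccr2 promoter, chr9:124101933-124102232, plus strand: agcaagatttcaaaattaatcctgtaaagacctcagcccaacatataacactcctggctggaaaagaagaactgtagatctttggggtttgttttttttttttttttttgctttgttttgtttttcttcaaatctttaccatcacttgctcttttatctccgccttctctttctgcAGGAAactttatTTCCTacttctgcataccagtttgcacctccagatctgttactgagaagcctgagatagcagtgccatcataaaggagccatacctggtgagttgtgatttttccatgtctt
Cxcr2 promoter, chr1:74153744-74154043, plus strand: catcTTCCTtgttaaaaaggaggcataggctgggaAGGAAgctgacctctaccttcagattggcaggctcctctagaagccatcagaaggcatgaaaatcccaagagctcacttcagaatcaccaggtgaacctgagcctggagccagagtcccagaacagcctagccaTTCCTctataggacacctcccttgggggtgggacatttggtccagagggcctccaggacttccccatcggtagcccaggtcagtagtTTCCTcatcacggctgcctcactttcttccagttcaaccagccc
The window of Cx3cr1 held 1 match, that of Ccr2 held 2 and that of Cxcr2 held 4. Of the 8 members with a promoter entry, 7 held at least 1 match, as did 66.7% of all 32851 promoters. Cxcr4, at 0 matches, was the exception. A match describes letters in the window and not a bound site.

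Of 40411 barcodes, 38751 passed the limits on genes and mitochondrial counts, with 2739 to 10044 passing cells per suffix and a median of 1536 to 3503 UMIs per barcode. The suffixes were not independent of each other. In all, 3890 barcode sequences occurred under more than 1 suffix, 490 of them under all 6, and 14489 of the passing cells (37.4%) carried such a barcode. Between 509 and 3428 barcodes were shared by any pair of suffixes, and over the 15 pairs the log UMI totals of the same barcode correlated with r from 0.216 to 0.914. Cells with a shared barcode had a median of 927 UMIs, against 3117 for the others. Of 51 choroid plexus-like cells whose barcode also passed under another suffix, 48 met the same marker gate there, as did 8 of 11 granulocyte-like cells, while 0 of 11 monocyte-like, 0 of 2 Cd209a dendritic-like and 0 of 6 NK cell-like cells did. Cells may therefore be counted more than once, and each result was also computed on the 24262 cells whose barcode occurred under 1 suffix. Those values are called values of single-suffix cells below.

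Groups of cells were set by marker genes that are not among the 9 receptors. Microglia-like cells (35010 cells, 90.3% of those that passed) had at least 0.5% of their UMIs on Tmem119, P2ry12, Sall1 and 6 other microglial genes. The study also named several clusters of bone-marrow-derived macrophages. It described low levels of microglial genes in a cluster, high Spp1 and Apoe in another, interferon genes in another and differentiating cells in a further one. No gate was set for such macrophages here. Microglia-like cells are called resident below, and the part of recruited macrophages among them was not tested. Recruited cells had at least 4 UMIs from at least 2 genes of their own list and under 0.3% microglial UMIs. They comprised 205 monocyte-like cells (Ly6c2, Plac8, Ms4a4c and others), 64 Cd209a dendritic-like cells, 134 NK cell-like cells and 66 granulocyte-like cells, together 469. A further 186 choroid plexus-like cells (Enpp2, Sostdc1), which are epithelial, gave the background, except for Ackr3, which had 2 UMIs in them. Levels are UMIs scaled to 1000000 UMIs of a group (CPM). Tmem119 was at 2526 CPM in microglia-like cells and at 14.2 in monocyte-like cells, Ly6c2 at 893.3 in monocyte-like and 0.17 in microglia-like cells, and Gzma at 9219 in NK cell-like cells. These are genes of the gates, so their levels follow from the gates and do not test the groups. Ptprc, which encodes the CD45 used for the sort, had a UMI in 83.9% of monocyte-like, 47.4% of microglia-like and 0.538% of choroid plexus-like cells. Of the recruited cells 31 had a shared barcode, of the choroid plexus-like cells 52 and of the microglia-like cells 12552. Intervals given below are 95% exact Poisson (levels and ratios) or binomial (shares) intervals, which cover counting error only.

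Cx3cr1 was the receptor of the resident cells. In the 6 suffixes its level in microglia-like cells ran from 1611 to 2187 CPM with a median of 1715, and 83.9% of the cells (83.5 to 84.3%) had at least 1 UMI. In single-suffix cells that share was 97.5% (97.3 to 97.7%). In monocyte-like cells the level was 133.8, 237.8 and 110.3 CPM in suffixes 4, 5 and 6, the only suffixes with at least 20 such cells. Recruited values thus come mostly from these suffixes, and which graft and time they hold was not taken into account. Microglia-like cells of the same suffixes had 1723, 1867 and 1706 CPM, so the difference held within each, as it did for Ccr1, Ccr2 and Cxcr4 in 3 of 3 suffixes. Over all cells it stood at 1737 CPM in microglia-like and 133.2 CPM (110.6 to 159.1) in monocyte-like cells, 13.04-fold lower (10.9 to 15.7). In single-suffix cells the fold was 14.4. The fold depended on leaving out recruited cells with more microglial RNA, since without that limit it was 3.93, below the 4-fold taken as a call.

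The other groups were also far below microglia-like cells in Cx3cr1. Granulocyte-like cells had 168.8 CPM (98.3 to 270.3), Cd209a dendritic-like cells 67.9 CPM (43.0 to 101.8) and NK cell-like cells 51.9 CPM (28.4 to 87.1). The choroid plexus-like cells, at 19.7 CPM (8.51 to 38.9) and 8 UMIs, were the lowest. Neighbours in this order were not all separable. The granulocyte-like to monocyte-like ratio was 1.27 (0.715 to 2.11) and the NK cell-like to dendritic-like ratio 0.765 (0.364 to 1.55).

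Part of this low signal could be compared with free microglial RNA. If all microglial RNA in a group came in microglial proportions, the C1qa, C1qb and C1qc counts, genes of complement that no gate used, would bring 44.6 CPM of Cx3cr1 to monocyte-like cells, and 133.2 were counted, a ratio of 2.99 (2.48 to 3.57). In Cd209a dendritic-like cells the same ratio was 3.11 (1.97 to 4.67). In NK cell-like cells it was 0.504 (0.276 to 0.846) and in granulocyte-like cells 0.685 (0.399 to 1.10), so by this measure Cx3cr1 there did not exceed the level that such RNA would give. C1q genes are also known in recruited macrophages. By the microglial genes of the gate, which the gate itself holds low, the ratios were 5.61 in monocyte-like, 3.36 in dendritic-like, 1.17 (0.640 to 1.96) in NK cell-like and 1.79 (1.04 to 2.86) in granulocyte-like cells.

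Ccr2 showed the opposite distribution. In monocyte-like cells it was at 2165, 1813 and 2178 CPM in suffixes 4, 5 and 6, and in microglia-like cells it ran from 3.501 to 5.75 CPM over the 6 suffixes, with a median of 4.70. The ranges lay far apart. Over all cells the level was 2126 CPM (2033 to 2223) against 4.59 (4.15 to 5.06), 463.3-fold higher (415.8 to 517.2), and 430.9-fold in single-suffix cells. A Ccr2 UMI was found in 94.1% of monocyte-like cells (90.0 to 96.9%) and in 1.04% of microglia-like cells, against 0 of 186 choroid plexus-like cells, which allows a share of up to 1.61%. The median cell held 4517 UMIs in the monocyte-like, 2490 in the microglia-like and 1035.5 in the choroid plexus-like group. With every cell thinned to 500 UMIs the shares were 57.6% of monocyte-like and 0.211% of microglia-like cells.

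Ccr2 was not limited to monocytes. All 64 Cd209a dendritic-like cells had a Ccr2 UMI, and the level was 1494.95 CPM in suffix 4 and 1477 CPM in suffix 6. Over all suffixes it was 1452 CPM (1326 to 1586), below the monocyte-like level by a ratio of 0.683 (0.617 to 0.754). NK cell-like cells stood at 376.4 CPM in suffix 4 and 504.7 CPM in suffix 6, 452.4 CPM (375.7 to 540.2) in all and 394.2 in single-suffix cells, with a UMI in 41.8% of cells (33.3 to 50.6%). This was 98.6-fold (79.8 to 121) above microglia-like cells and 4.70-fold below monocyte-like cells. Of the monocyte list, Chil3 and Ifitm6 were at 0 UMIs in NK cell-like cells and Plac8 was at 3.93% of its monocyte-like level, where Ccr2 was at 21.3%. Ly6c2, which NK cells are also known to express, was at 36.9%. The gate itself keeps monocyte-list genes low in these cells, and the part of monocyte RNA in their Ccr2 was not tested. Granulocyte-like cells had 0 Ccr2 UMIs, at least 71.4-fold below monocyte-like cells when the 0 is bounded at 3 counts, and 59.5-fold in single-suffix cells. The order of Ccr2 was thus monocyte-like, dendritic-like, NK cell-like and microglia-like. Granulocyte-like and choroid plexus-like cells, at 0, could not be placed against microglia-like cells, since 3 counts there would be 29.8 and 7.39 CPM.

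Of all 3568 Ccr2 UMIs in passing cells, 71.8% were in the 4 recruited groups, which held 1.70% of all UMIs. Another 285 were in 887 cells with little microglial RNA that met no marker list. These cells led with Cxcr6, Tnfrsf18, Ctla2a and Ms4a7 and were given no name, and 619 of them had a shared barcode.

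Ccr1, a receptor of CCL3, CCL5 and related chemokines, separated the myeloid recruits from the lymphoid one. It was at 478.3 CPM (434.6 to 525.3) in monocyte-like cells, at 528.7, 455.8 and 495.2 CPM in suffixes 4, 5 and 6. In microglia-like cells it ran from 30.1 to 62.0 CPM (median 46.0) over 6 suffixes, without overlap, and the ratio was 10.8 (9.78 to 11.9), or 9.45 in single-suffix cells. The highest level belonged to granulocyte-like cells, at 1063 CPM (870.9 to 1284), 2.22-fold (1.78 to 2.75) above monocyte-like cells, although no suffix held 20 of them. Cd209a dendritic-like cells had 280.3 CPM (226.8 to 342.6), with 170.9 in suffix 4 and 305.0 in suffix 6. A single UMI was counted in the 134 NK cell-like cells and 0 in choroid plexus-like cells.

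Cxcr2 had its highest level in granulocyte-like cells, which held 35.7% of its 196 UMIs in passing cells. Another 57 were in 64 cells that met the granulocyte list but held 0.3% or more microglial UMIs. Granulocyte-like cells had 70 UMIs, 695.2 CPM (541.9 to 878.3), and a UMI in 50.0% of cells (37.4 to 62.6%). Microglia-like cells had 54 UMIs, 0.62 CPM, and ran from 0.27 to 1.205 CPM over suffixes. The ratio was 1122 (775.5 to 1631). It was 316.8 among cells of at least 1000 UMIs, of which 28 were granulocyte-like, and 2546 with each cell thinned to 500 UMIs, so its size differed with the depth of the cells kept. Monocyte-like cells had 3 UMIs, a ratio of 5.29 (1.06 to 16.3) to microglia-like cells. Both the Cd209a dendritic-like and the NK cell-like group had 0, which placed granulocyte-like cells at least 78.5-fold and 62.5-fold higher.

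Within the granulocyte-like cells Cxcr2 was not counted where the immature list led. In 14 cells with more UMIs of the immature list (Ngp, Camp, Ltf and Chil3) than of the mature list there were 0 Cxcr2 UMIs (interval up to 86.7 CPM), whereas 32 cells with more of the mature list (Retnlg, Il1r2, Mmp8 and Mmp9) had 36 UMIs, 845.0 CPM (591.8 to 1170). The 20 cells with equal counts of both lists had the highest level, with 34 UMIs and 2187 CPM (1515 to 3056). Ccr1 was at 211.6 CPM (96.7 to 401.6) in the first set and at 1338 CPM (1013 to 1733) in the second. The first set was also deeper, with a median of 2755.5 UMIs against 877, and the part of depth in this contrast was not tested.

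Cxcr4, the receptor of CXCL12, was found in every recruited group and was near 0 in resident cells. Granulocyte-like cells had 218.5 CPM (136.9 to 330.8), monocyte-like cells 46.96 CPM (34.0 to 63.3), NK cell-like cells 33.4 CPM (15.3 to 63.4) and Cd209a dendritic-like cells 11.8 CPM (3.22 to 30.2). In microglia-like cells it ran from 0.57 to 1.28 CPM over suffixes, below 40.2, 89.2 and 46.9 CPM in monocyte-like cells of suffixes 4, 5 and 6. The monocyte-like to microglia-like ratio was 53.2 (35.7 to 78.2), and 93.3 (58.0 to 150.6) in single-suffix cells. Monocyte-like and NK cell-like cells were not separable, with a ratio of NK cell-like to monocyte-like of 0.711 (0.305 to 1.48).

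Cmklr1, the chemerin receptor, was counted at overlapping levels in resident and monocyte-like cells. Microglia-like cells ran from 55.9 to 71.8 CPM over suffixes (median 60.9), and monocyte-like cells had 100.4, 69.4 and 61.0 CPM in suffixes 4, 5 and 6, so the ranges overlapped. The ratio over all cells was 1.27 (0.992 to 1.60), and in single-suffix cells 1.43 (1.11 to 1.81), where the interval lay above 1. NK cell-like cells had 9 UMIs, 33.4 CPM (15.3 to 63.4). In contrast, Cd209a dendritic-like cells had 0 Cmklr1 UMIs, at least 8.88-fold below monocyte-like cells, and granulocyte-like cells had 0, at least 2.64-fold below. In single-suffix cells these bounds were 8.52-fold and 2.22-fold.

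Cxcr3 was counted in NK cell-like cells, with 13 UMIs, 48.2 CPM (25.7 to 82.4), and a UMI in 8.21% of cells. Suffix 4 gave 12.98 CPM from 1 UMI and suffix 6 gave 59.0 CPM, both above the 0.23 to 0.64 CPM of microglia-like cells, and the ratio was 105.0 (51.5 to 200.5). Another 10 UMIs were in 12 cells that met the plasmacytoid dendritic list (Klk1, Ly6d, Cox6a2 and Pacsin1), too few for a group. Those 12 cells also had 30 Ccr2 UMIs. Monocyte-like cells had 1 Cxcr3 UMI.

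Ccr7 and Ackr3 were too rare to rank. Ccr7 had 20 UMIs in all passing cells, 15 of them in microglia-like cells (0.17 CPM), 2 in NK cell-like cells and 0 in monocyte-like and Cd209a dendritic-like cells. Mature dendritic cells, for which CCR7 is known, were not gathered by the markers, as only 2 cells met their list, and those led with Thy1. Ackr3 had 27 UMIs, 23 of them in microglia-like cells (0.26 CPM), 2 in choroid plexus-like cells and 0 in the 4 recruited groups. The choroid plexus-like to microglia-like ratio of Ackr3 was 18.7 (2.13 to 75.6) and rested on those 2 UMIs. Levels of up to 3.28 CPM in monocyte-like and 29.8 CPM in granulocyte-like cells were not detectable at this depth, a limit set at 3 counts.

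**Figure D1:**
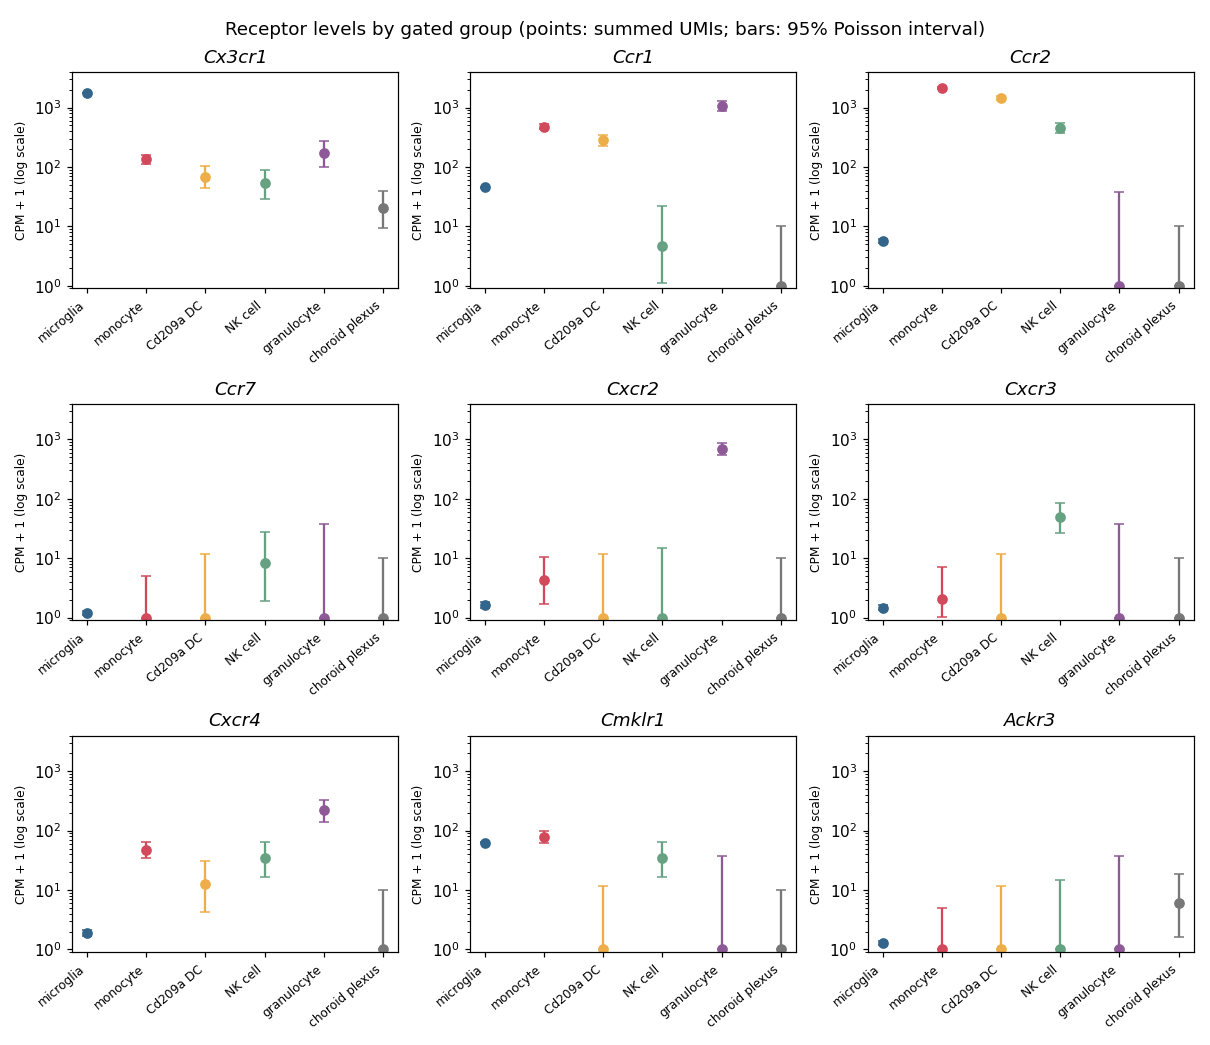
Level of each receptor in 6 groups of cells, as CPM plus 1 on a log axis, with 95% Poisson intervals. Each point is the summed count of a group, and a point at 1 is a count of 0. Cx3cr1 is highest in microglia-like cells (1737 CPM), Ccr2 in monocyte-like cells (2126 CPM) and Cxcr2 in granulocyte-like cells (695.2 CPM).

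**Figure D2:**
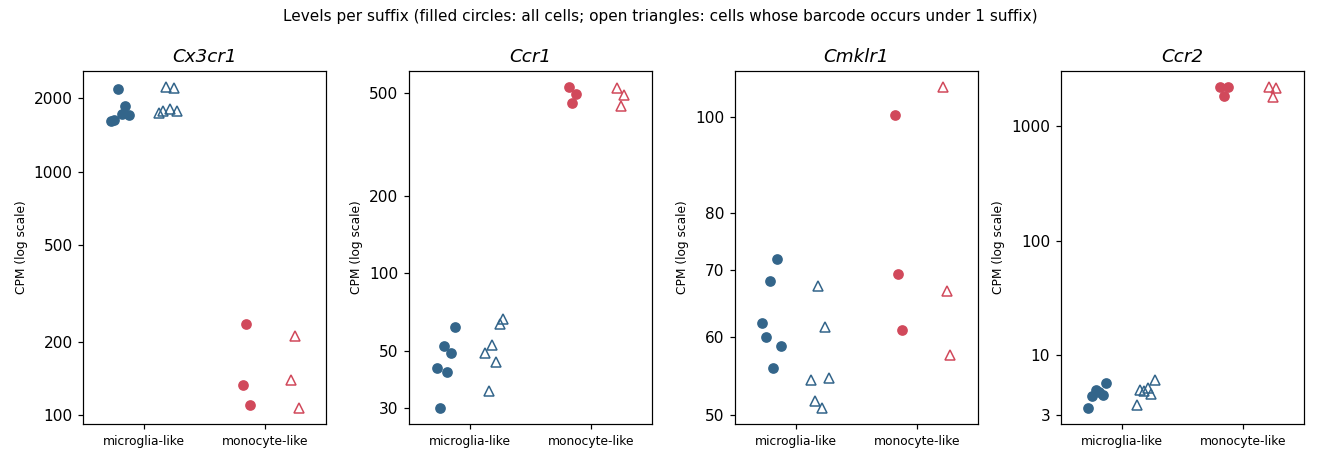
Levels of 4 receptors per barcode suffix in microglia-like cells (6 suffixes) and monocyte-like cells (3 suffixes with at least 20 cells), in CPM on a log axis. Filled circles are all cells and open triangles are cells whose barcode occurs under 1 suffix. The groups overlap for Cmklr1 and lie apart for Cx3cr1, Ccr1 and Ccr2.

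Set against all genes, 4-fold differences were common. Among 3479 genes with at least 50 CPM in either group, 9.89% were at least 4-fold higher in monocyte-like than in microglia-like cells and 9.63% at least 4-fold lower. Of the 4 receptors that reached this level, Ccr1 and Ccr2 were higher, Cx3cr1 was lower, and Cmklr1 was neither. In Cd209a dendritic-like cells Ccr1 and Ccr2 were higher (11.6% of 3628 genes) and Cx3cr1 and Cmklr1 lower (11.3%). In NK cell-like cells Ccr2 was higher (12.4% of 3788 genes) and Cx3cr1 lower (13.7%). Cxcr3 fell short of the 50 CPM minimum there and passed it in single-suffix cells. In granulocyte-like cells Ccr1, Cxcr2 and Cxcr4 were higher (12% of 3247 genes) and Cx3cr1 lower (9.73%). Ccr2, Cxcr2, Cxcr3 and Cxcr4 were far below 50 CPM in microglia-like cells. They could reach the minimum only where they were high, so their calls as higher were fixed by it. Ccr1 also reached the minimum only through recruited groups.

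Among the other receptors of the pathway, few reached 50 CPM. Of 15 further chemokine receptors, 3 did in the monocyte-like comparison, with 0 higher and 1 lower. Their median difference was -0.74 on the log2 scale, against 0.30 over all genes tested. The lower one was Ccr6, at 259.0 CPM in microglia-like and 1.09 CPM in monocyte-like cells. The median over the 4 members tested was 1.89. It is not set against the others, since Ccr1 and Ccr2 reached 50 CPM only through monocyte-like cells. Cxcr6 stood at 140.9 CPM in NK cell-like and 0.07 in microglia-like cells. Of 7 other chemoattractant receptors, 4 were tested in granulocyte-like cells, with 3 higher (C5ar1, Fpr1 and Fpr2) and 1 lower. Over all genes tested there, 12% were higher and 9.73% lower. In NK cell-like cells 3 were tested, with S1pr5 higher at 107.5 CPM and 2 lower, against 12.4% and 13.7% of all genes tested. Cxcr6, Fpr1, Fpr2 and S1pr5 were near 0 in microglia-like cells, so their calls as higher were fixed by the 50 CPM minimum. The 15 further chemokine receptors gave 3 tested, 0 higher and 1 lower in Cd209a dendritic-like cells, and 4, 1 and 2 in NK cell-like cells. The shares over all genes in each comparison are those of the paragraph above.

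The ligands lay on both sides. Of 21 ligand genes in the matrix, 10 reached 50 CPM in the monocyte-like comparison, with 4 higher, 3 lower and a median of -0.28 on the log2 scale. Cxcl1, among the 4 higher, was at 0.15 CPM in microglia-like cells, so its call was fixed by the minimum. Over all genes tested there, 9.89% were higher and 9.63% lower. The Ccr2 ligands Ccl2 and Ccl12 were at 723.4 and 3108 CPM in microglia-like cells and at 256.6 and 84.1 CPM in monocyte-like cells. Ccl3, a ligand of CCR1, and the related Ccl4 were at 2112 and 3639 CPM in microglia-like cells and at 326.5 and 415.0 in monocyte-like cells. The Cxcr2 ligand Cxcl2 had the reverse order, with 34.9 CPM in microglia-like, 4476 in monocyte-like and 6505 in granulocyte-like cells. Ccl5 was at 20154 CPM in NK cell-like cells. Of 9 ligands tested in each of the other groups, 3 were higher and 5 lower in Cd209a dendritic-like, 1 and 5 in NK cell-like, and 2 and 1 in granulocyte-like cells. In the same order, the shares of all genes tested were 11.6% and 11.3%, 12.4% and 13.7%, and 12% and 9.73%. Cxcl2, at 34.9 CPM in microglia-like cells, reached the 50 CPM minimum only through the recruited group wherever it was higher. So did Ccl5, at 19.8 CPM in microglia-like cells, in the NK cell-like comparison. Cx3cl1, Cxcl12 and Rarres2 (chemerin) had 1, 21 and 1 UMIs in microglia-like cells, so the ligands of Cx3cr1, Cxcr4 and Cmklr1 were hardly counted in these sorted cells, and Ccl19 and Ccl21a, the ligands of Ccr7, had 0.

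Among microglia-like cells, the receptors differed in how their UMIs were spread. Cx3cr1 had a mean of 5.16 UMIs per cell with a UMI and up to 35. Ccr1 was found in 5.68% of cells, yet 444 cells with 3 or more UMIs (1.27% of the cells) held 47.2% of its UMIs, and a single cell held 12. Cmklr1, found in more cells (13.7%), had only 2.98% of its UMIs in cells with 3 or more. Ccr2 had 344 of its 365 positive microglia-like cells at 1 UMI. The cells with 3 or more Ccr1 UMIs were deep, with a median of 3833.5 UMIs. The share of cells with a Ccr1 UMI was 1.52% after thinning to 500 UMIs, and that with a Cmklr1 UMI 3.35%.

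Ccr2 and Cx3cr1 were counted in some of the same cells. Of 193 monocyte-like cells with a Ccr2 UMI, 68 (35.2%) also had a Cx3cr1 UMI and 130 (67.4%) a Ccr1 UMI. A further 49 cells met the monocyte list but were kept apart for 0.3% or more microglial UMIs. They had 125 Ccr2 and 390 Cx3cr1 UMIs, and of the 47 single-suffix ones 46 had a Cx3cr1 UMI. The part of microglial RNA in them was not tested. Among 142 monocyte-like cells with a Ly6c2 UMI, Cx3cr1 was at 113.6 CPM (88.9 to 143.0) and Ccr1 at 533.1 CPM (477.8 to 593.1). Among the 63 cells without one, Cx3cr1 was at 177.5 CPM (131.7 to 234.0) and Ccr1 at 355.0 CPM (288.8 to 431.8). The Ccr1 intervals were apart and those of Cx3cr1 overlapped, while Ccr2 was 2099 and 2187 CPM. Ly6c2 marks classical monocytes, and a cell without a UMI may still express it. Of 33 granulocyte-like cells with a Cxcr2 UMI, 27 also had a Ccr1 UMI, against 16 of the 33 without.

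Resident cells whose barcode was shared between suffixes had other receptor levels than the rest. The 12552 microglia-like cells with a shared barcode had Cx3cr1 at 1089 CPM (1072 to 1105), against 1872 CPM (1862 to 1882) in the 22458 without. Ccr1 was at 16.5 CPM (14.5 to 18.7) against 49.9 (48.3 to 51.6). Cmklr1 was at 93.4 CPM (88.6 to 98.5) against 55.4 (53.7 to 57.1), and Cxcr4 at 2.74 CPM (1.97 to 3.72) against 0.50 (0.35 to 0.69). Cx3cr1 and Ccr1 were thus lower and Cmklr1 and Cxcr4 higher in shared-barcode cells. These cells were also shallower, with a median of 934 UMIs against 3107, and the part of depth or of repeated counting in these differences was not tested.

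**Figure D3:**
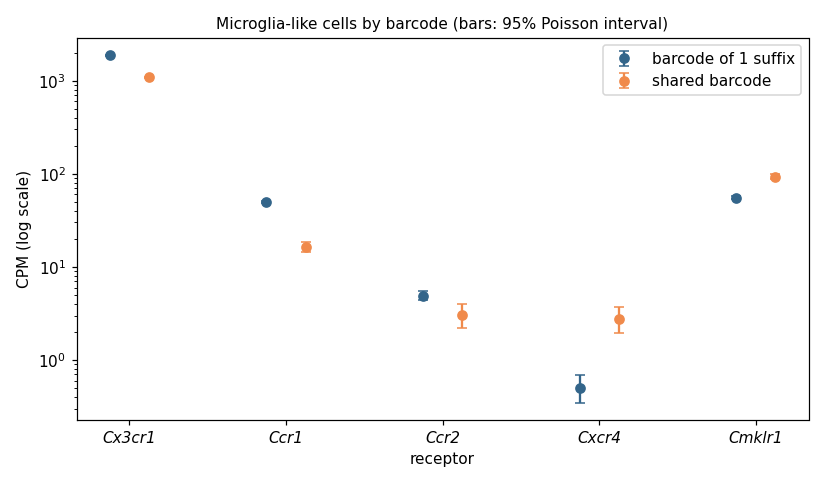
Levels of 5 receptors in microglia-like cells whose barcode occurs under 1 suffix (22458 cells) or under several (12552 cells), in CPM on a log axis with 95% Poisson intervals. Cx3cr1, Ccr1 and Ccr2 are lower and Cxcr4 and Cmklr1 higher in cells with a shared barcode.

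States were compared in microglia-like cells of at least 2000 UMIs. A state held the cells with the largest share of a marker list, at most the top 5% of each suffix and at least 3 UMIs of the list, and was set against the rest. In the 1030 cells high in Ccl2 and Ccl12, Ccr1 was at 75.0 CPM (66.6 to 84.2) against 47.6 in the rest, a ratio of 1.58 (1.39 to 1.78), higher in 6 of 6 suffixes, and 1.48 in single-suffix cells. The summed monocyte list was at 32.3 CPM in these cells and at 14.8 in the rest, and its part was not tested. Over all microglia-like cells Ms4a4c made up most of that list, at 16.4 CPM, with Plac8 next at 2.50 CPM. The sum is therefore mainly a level of Ms4a4c. In the 709 cells high in Lpl, Fam20c, Mmp12 and Fabp5, Ccr1 was at 25.2 CPM (19.4 to 32.1) against 50.0, a ratio of 0.504 (0.388 to 0.644), higher in 0 of 6 suffixes, and 0.540 in single-suffix cells. The Ccr1 ratio was also 1.33 (1.14 to 1.55) in MHC class II high cells, higher in 4 of 6 suffixes, and 1.39 in single-suffix cells. In interferon-high cells it was 1.27 (1.04 to 1.53), higher in 2 of 6, and 1.19 (0.963 to 1.45) in single-suffix cells. In cycling cells it was 0.744 (0.571 to 0.955), higher in 2 of 6, and 0.751 in single-suffix cells. Ccr1 therefore differed in both directions among microglia-like cells.

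Cx3cr1 was lower in the state cells than in the rest for all 6 lists. The largest difference was in the 1030 cells high in Apoe, Spp1, Lyz2, Gpnmb and Lgals3, at 1286 CPM (1250 to 1322) against 1870, a ratio of 0.687 (0.668 to 0.707), lower in all 6 suffixes, and 0.777 (0.757 to 0.797) in single-suffix cells. Cycling cells differed least, at 0.924 (0.891 to 0.959). Microglial marker RNA moved with it, at 0.828% of UMIs in the Apoe and Spp1 high cells against 1.496% in the rest, and its part was not tested. The study listed Spp1, Apoe and Lyz2 for glioma-associated microglia and also for glioma-associated bone-marrow-derived macrophages. The part of such macrophages in the Apoe and Spp1 high cells was not tested.

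Cxcr4 was rare but not evenly spread. In the Lpl high cells it had 12 UMIs, 4.65 CPM (2.40 to 8.12), against 0.49 in the rest, a ratio of 9.503 (4.48 to 18.8), higher in 6 of 6 suffixes. In the Apoe and Spp1 high cells it had 15 UMIs and a ratio of 8.55 (4.29 to 16.3), also higher in 6 of 6. In single-suffix cells the counts were 8 and 10 UMIs, the ratios 9.27 (3.61 to 21.2) and 6.65 (2.83 to 14.5), higher in 5 and 4 of 6 suffixes. The summed monocyte list was at 15.1 CPM in the Lpl high cells and 15.8 in the rest, and at 34.9 against 14.7 CPM in the Apoe and Spp1 high cells. Microglial marker RNA held 0.950% of UMIs in the Lpl high cells and 1.481% in the rest. Over microglia-like cells of any depth, Cxcr4 was at 2.79 CPM where that share was 0.5 to 1%. It was at 0.57 CPM at 1 to 1.5% and at 0.19 CPM at 1.5 to 2%. The part of this share in the Cxcr4 ratios was not tested. Cmklr1 in the Apoe and Spp1 high cells had a ratio of 1.34 (1.19 to 1.52), which became 1.08 (0.942 to 1.22) in single-suffix cells. In interferon-high cells its ratio was 1.36 (1.13 to 1.61), and 1.29 (1.07 to 1.55) in single-suffix cells. The monocyte list, mainly Ms4a4c in microglia-like cells, was at 59.1 CPM there against 14.7 in the rest, and its part was not tested. Ccr1 in the Apoe and Spp1 high cells had a ratio of 1.09 (0.944 to 1.26) in all cells and of 1.39 (1.23 to 1.57) in single-suffix cells.

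**Figure D4:**
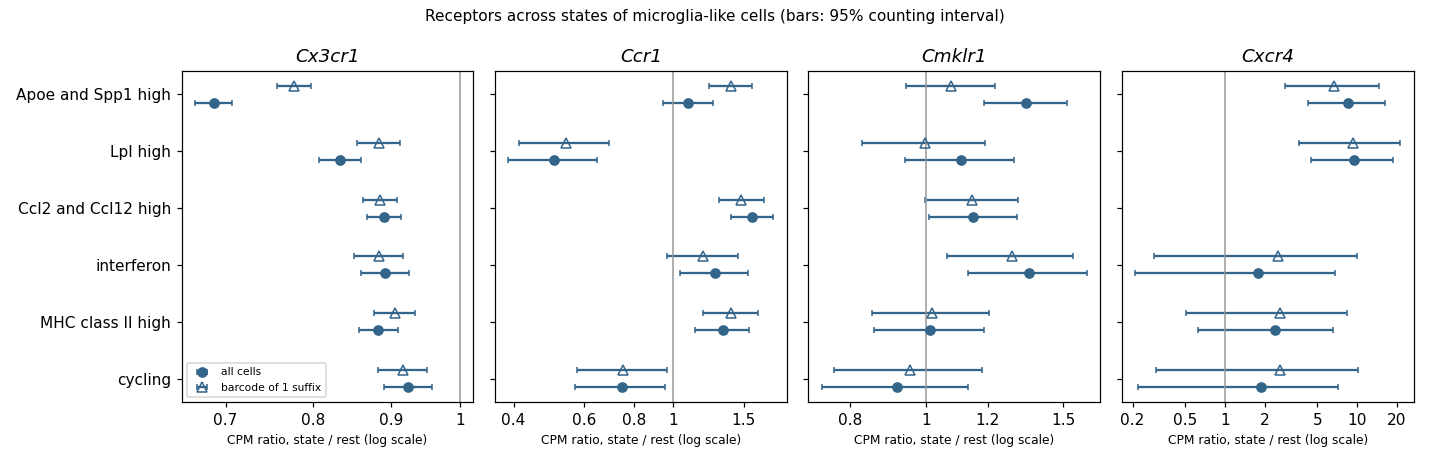
Ratio of the CPM in state cells to the CPM in the other microglia-like cells of at least 2000 UMIs, on a log axis with 95% counting intervals, for 4 receptors and 6 state lists. Filled circles are all cells and open triangles are cells whose barcode occurs under 1 suffix. Ccr1 is above 1 in Ccl2 and Ccl12 high cells and below 1 in Lpl high cells in both, and Cxcr4 has no ratio where it was counted at 0.

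Over the 6 groups of at least 50 cells, the genes most like Ccr2 in log2(CPM + 1) were S100a4, Hip1 and Ahr (Pearson r from 0.994 to 0.998, n = 6 groups), S100a4 being at 1166 CPM in monocyte-like and 2.31 CPM in microglia-like cells. Those most like Cx3cr1 were Csnk1e, Egr1 and Rnase4 (0.993 to 0.997), and for Ccr1 they were Eif4ebp1, Lst1 and Zfand3 (0.989 to 0.992). These are the highest of 8157 genes over 6 points and describe these cells only. In single-suffix cells the genes for Cx3cr1 were the same, but Ccdc69 took the place of Ahr for Ccr2. For Ccr1, Vapa and Cop1 took the places of Eif4ebp1 and Zfand3.

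In the GENCODE annotation of GRCm38 all 9 are protein-coding genes. Ccr1 lies at chr9:123962124-123968692 and Ccr2 at chr9:124101950-124113557. The annotated span of Cx3cr1, chr9:119901616-120069879, overlaps other genes, among them Csrnp1, Gorasp1, Wdr48 and Xirp1, and that of Cmklr1, chr5:113612354-113650426, overlaps Gm15736, so reads in shared parts may not be attributable to 1 gene.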

How the data were processed

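CD45+ cells of 6 mice (3 with IL-33-expressing and 3 with pcDNA grafts) were measured by 10x single-cell RNA-seq. The deposited matrix holds raw UMI counts per gene and barcode, whole numbers that the authors made by alignment to mm10 and counting with Cell Ranger 3.1.0 (per the file headers) and then aggregated without equalizing depth. The annotation release is not given in the sources used here. The submitters' processing notes also name Seurat 3.1.5, whose output was not used. The gene and barcode lists beside the matrix were deposited without values, and 0 columns of per-sample values were left unused.

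Depth was 9745192 to 24393841 UMIs per suffix. Cells were kept with over 200 and at most 2500 genes, under 5% mitochondrial counts and at least 500 UMIs. No doublet caller was run. Cells that met a recruited list but held 0.3% or more microglial UMIs, or that met several lists with under 2 times the UMIs of the next, were kept apart. Microglia-like cells had at most 1 UMI of each other large list. The receptors, marker lists and states were chosen with earlier results of these data known, and the way markers were scored was set after the data were seen. Named genes are the 9 receptors, fixed lists of other receptors and ligands, the gate markers, and per receptor the 3 genes with the highest Pearson r over groups, among genes of at least 20 CPM. Levels are summed UMIs scaled to 1000000 UMIs of a group (CPM). As 3′ counts, they carry no length term. A count of 0 was bounded at 3 counts, and folds given as at least a value do not include the counting error of the other group. Values per suffix needed 20 cells. Python 3.11.15, numpy 2.4.6, scipy 1.17.1 and pandas 2.3.3 were used. The ratios were also run on simulated Poisson counts of genes at 50 CPM or more in microglia-like cells. Such counts follow the model of the intervals and hold no spread between cells, so that spread was not tested. Alternatives covered the gate, gene, mitochondrial and depth limits, thinning, per-cell means, leaving out each suffix and, added after the data were seen, keeping barcodes found under 1 suffix only.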

Additional observations from a re-analysis of the deposited data

Results flagged for a closer look

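Per-suffix levels were screened for a value far from the others in 26 pairs of a receptor and a group, those with 4 to 6 suffixes of at least 20 cells and unequal values, and 4 stood apart. Chance gives such a value in about 1 of 20 groups, but that rate does not hold for 3 of the 4, where every other suffix was at 0 and 1 or 2 UMIs set the value. These were Ackr3 at 1.71 CPM (1 UMI) in suffix 4 of the ungated cells with intermediate microglial RNA, Cxcr2 at 6.70 CPM (2 UMIs) in suffix 5 of the ungated cells with little microglial RNA, and Ackr3 at 19.2 CPM (2 UMIs) in suffix 6 of the choroid plexus-like cells, and nothing is read from them. The other was Ccr2 at 34.2 CPM (20 UMIs) in suffix 4 of the ungated cells with intermediate microglial RNA. Only 1.69% of those 295 cells had a Ccr2 UMI, so few cells set the value, and its cause was not tested.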

How the results depend on the processing

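Each ratio to microglia-like cells below is on the log2 scale. All 7 ratios that could be computed kept their direction, and 45 of 56 values under 8 other settings lay inside the counting interval of the reported value. Without the limit on microglial RNA the monocyte-like ratios were -1.97 for Cx3cr1, 8.61 for Ccr2 and 3.16 for Ccr1, and the granulocyte-like ratio of Cxcr2 was 9.15. With means of per-cell shares they were 3.74 for Ccr1, 5.12 for Cxcr4 and 11.35 for Cxcr2, and for Cxcr2 also 8.31 from 1000 UMIs per cell and 11.31 after thinning. With only barcodes found under 1 suffix, a setting chosen after seeing the data, they were 3.24 for Ccr1 and 6.54 for Cxcr4. The cause of these moves was not tested. Leaving out each suffix gave -3.84 to -3.51 for Cx3cr1, 8.78 to 8.90 for Ccr2, 3.34 to 3.51 for Ccr1, 5.58 to 5.86 for Cxcr4, 0.11 to 0.59 for Cmklr1, 9.62 to 10.38 for Cxcr2 and 6.33 to 6.96 for Cxcr3. Ackr3 in monocyte-like and Ccr7 in Cd209a dendritic-like cells had 0 UMIs and gave no ratio under any setting. The groups rested on few suffixes: without suffix 4 the monocyte-like group held 132 of 205 cells and the Cd209a dendritic-like group 41 of 64, without suffix 6 they held 116 and 35 and the NK cell-like group 68 of 134, and without suffix 1 the choroid plexus-like group held 123 of 186. No paired analysis was possible because neither the labels nor the barcodes give a suffix the replicate number of a mouse. Depth limits the rare receptors, and suffixes were not assigned to animals, so no spread between animals is given.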
